A study of Mus musculus with 4 samples.

Results

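The Mediator complex was followed through 33 genes, listed by name: the subunits of its head, middle and tail modules, the scaffold subunit Med14 that joins them, and the kinase module with its paralogs. Every probe whose platform annotation named one of these genes was taken, which gave 73 of the 34885 probes with 1 gene symbol, and 33 of 19057 genes. Of the 33 genes, 28 were detected on at least 1 array (84.8%, against 50.2% of all genes with a probe), where detected means a detection p under 0.01. Liver RNA had been hybridised to 4 bead arrays of 45281 probes. The 4 groups, each a single array, were Ad-Med1 at day 3, Ad-LacZ at day 3, Ad-Med1 at day 5 and Ad-LacZ at day 5. All mice carried floxed Med1 alleles (Med1fl/fl) on the C57BL6/J background, were 5.5 weeks old, and received an adenovirus into the tail vein, so the controls had a virus as well. Ad-Med1 (Ad-His-Med1) expresses Med1 and Ad-LacZ expresses beta-galactosidase; the labels name no Cre in any of these groups. Neither the number of mice behind an array nor the promoter that drives the virus gene is given in the sources used here.

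Mediator carries the signal of DNA-bound transcription factors to RNA polymerase II. Its head and middle modules contact the polymerase, its tail module takes up many activators, and its kinase module, built of a cyclin-dependent kinase, cyclin C, Med12 and Med13, binds the core reversibly and blocks the polymerase while bound. Med1, in the middle module, is the main docking subunit for nuclear receptors, which grip its LXXLL motifs, and in liver it is known as a partner of PPARalpha and of the xenobiotic receptor CAR.

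The Ad-Med1 arrays were brighter, with median intensities of 153 (day 3) and 164 (day 5) in Ad-Med1, against 94.1 and 100.4 in Ad-LacZ, and the values below are log2 signals after background correction and quantile normalization. The direction of small differences rests on that step: with the deposited intensities scaled only to a common median, detected genes as a whole were higher in Ad-Med1 by a median of 1.004 at day 3 and 0.83 at day 5. Sex-linked RNA was unlike between the arrays as well: Xist read 11.17 and 9.51 on Ad-Med1 at day 3 and day 5 and 5.31 (not detected) and 8.15 on Ad-LacZ, while Y-linked Eif2s3y was detected only on Ad-Med1 at day 5 and Ad-LacZ at day 3. Of 10 hepatocyte markers, 8 were detected on each Ad-Med1 array, and 7 and 8 on the Ad-LacZ arrays of day 3 and day 5; Tat and Fgb were detected on none. Markers of dividing cells averaged 10.33 and 9.78 on Ad-Med1 at day 3 and day 5, against 6.97 and 8.39 on Ad-LacZ (4 of 6 with a probe). Kupffer cell markers averaged 6.13 and 7.96 on Ad-Med1, against 8.77 and 7.36 on Ad-LacZ (6 of 6 with a probe). Only 1 of these 6 was detected on Ad-Med1 at day 3, so its mean there is mostly background signal. Erythroid markers averaged 9.56 and 13.55 on Ad-Med1, against 13.87 and 13.22 on Ad-LacZ (4 of 5). Neutrophil markers averaged 7.91 and 9.07 on Ad-Med1, against 6.23 and 7.06 on Ad-LacZ (6 of 6). All 6 signals were at least 1.5-fold higher in Ad-Med1 on each day (9.64% of genes were on both). Only 2 of the 6 were detected on Ad-LacZ at day 3, and 3 at day 5. Against undetected controls at day 3, Camp and Retnlg were at least 1.18-fold and 1.14-fold higher, and Ngp and Ltf gave no fold. At day 5, Ngp, Camp and Ltf were at least 2.11-fold, 3.05-fold and 3.29-fold higher. T cell markers averaged 6.57 and 8.50, against 6.68 and 6.90 (5 of 6 with a probe). At day 3 only 1 of the 5 was detected on Ad-Med1 and 2 on Ad-LacZ, so those means are mostly background signal. The 4 measured at day 5 were all at least 1.5-fold higher (22.4% of genes were). Stellate cell markers were at least 1.5-fold lower on both days in 3 of 5 (9.67% of genes were). The 5 averaged 8.58 and 8.46 on Ad-Med1, against 9.56 and 9.16 on Ad-LacZ. Col1a1 of the same list went the other way at day 5, at least 1.87-fold higher against an undetected control, and stood at 0.06 at day 3. Liver endothelium markers averaged 8.52 and 8.81, against 9.12 and 9.16 (5 of 5 with a probe). Lyve1 of this list went the other way, 0.68 higher in Ad-Med1 at day 3 and 0.14 at day 5, and Kdr was detected on no array. In such tissue RNA, fewer cells of a type and less RNA per cell cannot be told apart. The part that brightness, sex-linked RNA or these cell types had in the subunit differences was not tested.

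Promoter windows are shown for Med10 and Med25, and for Med1, whose RNA the virus adds to. Among the detected subunits, only Med10 and Med25 lay 1.5-fold or more below Ad-LacZ at day 3 and again at day 5. Each gene was read there by its brightest probe, and other subunits were lower by less. The sequences are those of RefSeq for GRCm38.p6, the 250 bases before a start, 5′ to 3′ along the gene, and capitals mark the motifs searched on both strands: the ETS factor motif CCGGAAG, the GC box GGGCGG, the CCAAT box, the TATA box with its letters TATAAA, the core of the NRF1 motif written as GCGCATG, the YY1 motif given by ATGGCGG, and the half-site of nuclear receptors, which reads AGGTCA. Med10 has 2 annotated starts.
Med10 upstream start (chr13:69802120-69802369, plus strand): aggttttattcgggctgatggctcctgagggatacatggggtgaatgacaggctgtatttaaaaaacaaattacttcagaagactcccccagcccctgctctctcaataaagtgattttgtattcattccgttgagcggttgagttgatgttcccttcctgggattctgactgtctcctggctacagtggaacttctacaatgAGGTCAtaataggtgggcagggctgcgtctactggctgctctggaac
Med10 downstream start (chr13:69809632-69809881, plus strand): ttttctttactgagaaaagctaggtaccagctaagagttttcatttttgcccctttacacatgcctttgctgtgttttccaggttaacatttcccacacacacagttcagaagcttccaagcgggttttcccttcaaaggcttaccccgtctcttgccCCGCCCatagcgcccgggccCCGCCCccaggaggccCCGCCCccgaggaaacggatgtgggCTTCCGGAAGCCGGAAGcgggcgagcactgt
Med25 (chr7:44892425-44892674, minus strand): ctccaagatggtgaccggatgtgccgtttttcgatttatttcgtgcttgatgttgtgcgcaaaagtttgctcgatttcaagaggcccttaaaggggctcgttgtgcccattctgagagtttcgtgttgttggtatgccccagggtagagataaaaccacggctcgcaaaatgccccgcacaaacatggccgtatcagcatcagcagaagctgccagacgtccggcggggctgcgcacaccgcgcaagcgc
Med1 (chr11:98192907-98193156, minus strand): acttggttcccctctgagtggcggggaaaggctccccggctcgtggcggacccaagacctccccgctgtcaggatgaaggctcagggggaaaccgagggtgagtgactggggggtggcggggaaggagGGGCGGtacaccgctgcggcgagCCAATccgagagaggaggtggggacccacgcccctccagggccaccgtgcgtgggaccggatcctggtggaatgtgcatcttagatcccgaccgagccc
The downstream Med10 window held 3 GC boxes and a run of overlapping ETS motifs, and the upstream one a single receptor half-site. The Med25 window held none of the 7 motifs, so the 2 subunits shared none of these letters there, and Med1 held a GC box and a CCAAT box. Windows of 300 bases (these 250 and the next 50) were at hand for 28 of the 33 genes, 32 windows in all. Counting each gene once over its windows, the ETS motif stood in 8 of the 28 genes (28.6%, against 9.93% of 27025 mouse genes), the NRF1 motif in 4 (14.3%, against 4.41%), the YY1 motif in 5 (17.9%, against 4.69%) and the GC box in 19 (67.9%, against 38.2%). The CCAAT box stood in 11 (39.3%, against 41.1%), the receptor half-site in 7 (25.0%, against 18.1%) and the TATA box in 3 (10.7%, against 15.7%). The Mediator windows were also richer in G and C, with a median of 57.8% against 52.7%. A match describes the letters and shows no bound factor.

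Med1 itself checks the labels. The platform has 5 Med1 probes, of which 3 were detected, each annotated to a different RefSeq transcript of the gene. Probe ILMN_2658227 read 3671 and 7409 intensity units in Ad-Med1 at day 3 and day 5, against 104 and 121 in Ad-LacZ, where it was not detected. Its normalised log2 signals were 11.16 and 12.22 in Ad-Med1, against 5.94 and 6.38 in Ad-LacZ, which puts Ad-Med1 at least 20.9-fold above Ad-LacZ at day 3 and at least 56.1-fold at day 5. Both Ad-Med1 arrays were thus far above both controls, and the probe stood 1.06 higher at day 5 than at day 3 within Ad-Med1.

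Probe ILMN_3106388 read 9.35 and 9.66 in Ad-Med1, against 7.27 and 7.47 in Ad-LacZ, all detected, and was 4.23-fold and 4.56-fold higher. ILMN_1220563, whose signal was the highest of the 5 on average and which therefore stands for the gene, read 9.97 and 9.45 in Ad-Med1, against 7.98 and 9.25 in Ad-LacZ. Here the groups nearly met at day 5: the gap was 1.99 at day 3 and 0.20 at day 5. Between the days the probe differed by -0.51 in Ad-Med1 and by 1.28 in Ad-LacZ (day 5 minus day 3). With the Ad-LacZ arrays exchanged between the days, the gaps were 0.71 at day 3 and 1.48 at day 5. ILMN_1222371 and ILMN_2695175 were detected on no array. The files do not say which of the probes lie in the sequence carried by the virus, so how much of each signal came from the mouse's own Med1 cannot be told.

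**Figure D1:**
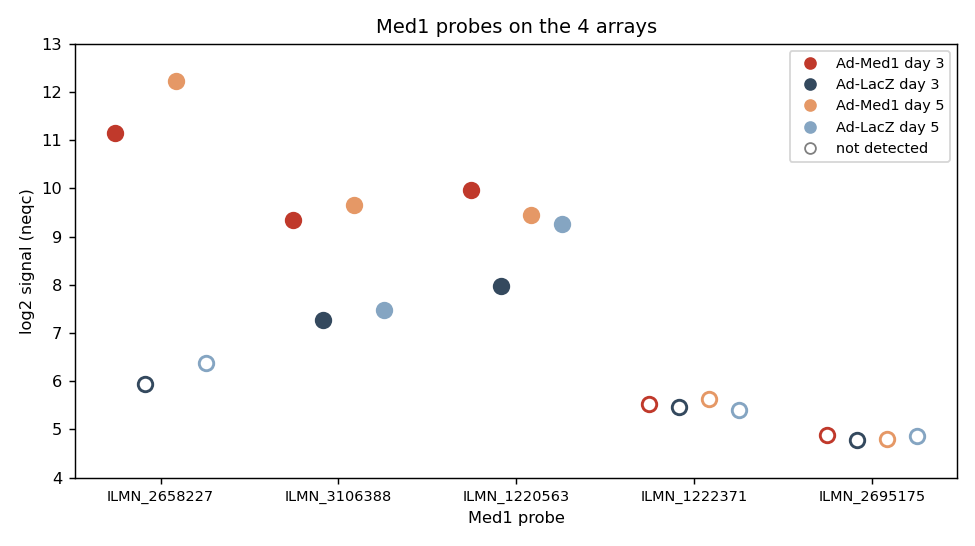
Normalised log2 signal (vertical axis) of each of the 5 Med1 probes (horizontal axis) on the 4 arrays; each point is 1 array and open points were not detected. ILMN_2658227 and ILMN_3106388 are well apart by virus on both days, with ILMN_2658227 at 11.16 and 12.22 in Ad-Med1 against undetected 5.94 and 6.38 in Ad-LacZ, while for ILMN_1220563 the groups nearly meet at day 5 (9.45 against 9.25).

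Over both days, limma was fitted to all 9566 detected genes with virus and day as terms; no gene passed at an adjusted p under 0.05 (0% called), and 1295 genes had an unadjusted p under 0.05 (13.5%). Med10 was the only one of the 28 detected subunits at that unadjusted level. With every detected probe fitted on its own, Med1 probe ILMN_2658227 had an effect of 5.53 ± 0.36 (SE) on the log2 scale and ILMN_3106388 one of 2.13 ± 0.32, both higher in Ad-Med1 on 2 of 2 days, at an adjusted p of 0.338 for each in limma. ILMN_1220563 had 1.09 ± 0.55 (adjusted p = 0.419, limma). The only residual degree of freedom was the difference between the virus effects of the 2 days. For these errors and p-values limma pooled it with a spread estimated over all features, which weighed more (prior 2.69 degrees of freedom in the gene fit, against 1). The p-values say nothing of the spread between mice.

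At day 3, 6 of the 28 detected subunits were at least 1.5-fold above Ad-LacZ in Ad-Med1 (21.4%, against 26.2% of all genes detected that day) and 4 were at least 1.5-fold lower (14.3%, against 24.5%). The higher ones were Med1, Med18, Med28, Med21, Med19 and Med23, and the lower ones Med10, Med12, Med25 and Med31. Without Med1, the gene the virus carries, 5 of 27 were higher. At day 5, 1 subunit was that much higher, Med14, against an undetected control (3.57%, against 22.4% of genes), and 3 were lower, Med25, Med10 and Med28 (10.7%, against 17.5%). On both days 17 of the 28 stayed under 1.5-fold (60.7%, against 35.9% of genes), none was at least 1.5-fold higher on both with 1 probe per gene (9.64% of genes were), and 2 were lower on both (7.14%, against 9.67%). The median difference of the subunits was -0.17 at day 3 and -0.08 at day 5, and that of all detected genes -0.03 and 0.07. With median scaling alone, 25 subunits were at least 1.5-fold higher at day 3 and 24 at day 5, and none was lower; relative to the shift of all genes, the subunit medians were then 0.14 on each day.

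**Figure D2:**
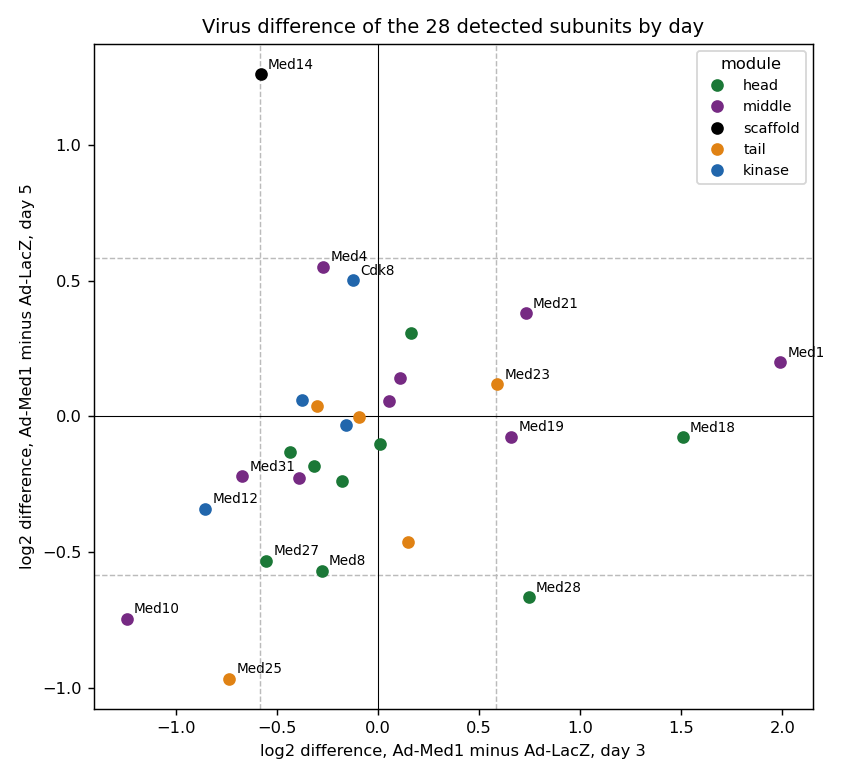
Log2 difference of Ad-Med1 minus Ad-LacZ at day 3 (horizontal axis) and day 5 (vertical axis) for the 28 detected subunits, coloured by module; dashed lines mark 1.5-fold and genes at least 0.5 from 0 on an axis are named. Most points lie within the dashed square, Med10 and Med25 lie below it on both axes, and Med28 lies on opposite sides of it.

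In the middle module, Med10, a core subunit essential in yeast, read 8.20 and 8.31 in Ad-Med1 at day 3 and day 5, against 9.44 and 9.05 in Ad-LacZ. Both Ad-Med1 arrays were below both controls, 2.37-fold lower at day 3 and 1.68-fold at day 5. Its limma effect was -0.99 ± 0.32 (SE), lower on 2 of 2 days, with an adjusted p of 0.367. The direction did not depend on which Ad-LacZ array served as control (-0.85 for Ad-Med1 at day 3 and -1.14 at day 5 with the controls exchanged). Med10 has 1 probe, and its deposited intensities ran the other way, at 589 and 660 in Ad-Med1 against 291 and 292 in Ad-LacZ; relative to the shift of all genes under median scaling it stood at -0.69 and -0.36.

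Med21 and Med7 together form the hinge of the middle module. Med21 read 10.06 and 9.91 in Ad-Med1, against 9.33 and 9.53 in Ad-LacZ, so that both Ad-Med1 arrays were above both controls, by 0.73 and 0.38. Med7 read 10.27 and 10.30 in Ad-Med1, against 10.21 and 10.24 in Ad-LacZ, and its range of 0.09 over the 4 arrays was the smallest of the 28. Med31, which binds the Med7 end of the module, read 7.42 and 7.41 in Ad-Med1, against 8.09 and 7.63 in Ad-LacZ: the Ad-LacZ array of day 3 was the high one, and the difference of -0.67 at day 3 was -0.21 against the control of day 5. Med19, which links the middle module to the polymerase, was 1.58-fold higher at day 3 by its brighter probe (8.86 in Ad-Med1 against 8.20 in Ad-LacZ) and -1.65 by another (6.84 against 8.49), so its direction at day 3 is not settled. At day 5 its probes stood at -0.08 and -0.61. Med4 read 8.75 and 8.66 in Ad-Med1 and 9.02 and 8.11 in Ad-LacZ, with differences of -0.27 and 0.55. Med26, which brings elongation factors to the polymerase, and Med9 stayed under 1.5-fold on both days (-0.39 and -0.23 for Med26, 0.11 and 0.14 for Med9). Over the 9 middle subunits the median was 0.05 at day 3 and 0.06 at day 5.

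In the head, 9 of 11 subunits were detected, with medians of -0.18 on each day. Med18, which forms the movable jaw of the head with Med20 and Med8, read 9.78 and 9.44 in Ad-Med1, against 8.28 and 9.51 in Ad-LacZ. The Ad-LacZ array of day 3 alone was low, so the 2.84-fold gap of day 3 had no counterpart at day 5 (-0.08) and was 0.27 when the Ad-LacZ array of day 5 was the control. Med8 read 10.44 and 10.24 in Ad-Med1, against 10.72 and 10.81 in Ad-LacZ, by the probe that stands for it (-0.28 and -0.57). Its other probe, ILMN_2672208, read 9.70 and 9.58 in Ad-Med1, against 10.95 and 10.63 in Ad-LacZ, and was 2.37-fold and 2.07-fold lower, at an adjusted p of 0.341 in limma. Both Med8 probes had both Ad-Med1 arrays below both controls, but the sizes were unlike. Med20 differed by -0.18 and -0.24.

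Med28, also called magicin, a head-associated subunit that binds the tumour suppressor merlin as well, went in opposite directions on the days. It read 10.87 and 10.60 in Ad-Med1, against 10.13 and 11.27 in Ad-LacZ: the Ad-Med1 arrays lay close together, between the lower and the higher control. The differences were 0.75 at day 3 and -0.67 at day 5, and they turned to -0.40 and 0.47 with the controls exchanged. Of all detected genes, 4.4% were at least 1.5-fold apart in opposite directions on the days. Med27 was lower by nearly the same amount on both days, with 8.17 and 8.30 in Ad-Med1 against 8.72 and 8.83 in Ad-LacZ (-0.55 and -0.53). Med11 and Med22, partners in a small helical bundle of the head, stayed under 1.5-fold on both days (-0.43 and -0.13 for Med11, 0.16 and 0.31 for Med22), as did Med6 (-0.32 and -0.18) and Med30 (0.01 and -0.10). Med17, a central head subunit, and Med29 were not detected on any array.

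All 5 tail subunits were detected on all 4 arrays, with medians of -0.09 at day 3 and -0.0025 at day 5. Med25, a target of strong activators that also binds nuclear receptors such as HNF4alpha, read 10.56 and 10.18 in Ad-Med1, against 11.30 and 11.14 in Ad-LacZ. Both Ad-Med1 arrays were below both controls, 1.67-fold at day 3 and 1.95-fold at day 5, with a limma effect of -0.85 ± 0.30 (SE; adjusted p = 0.369). With the controls exchanged the differences were -0.58 and -1.12, and relative to the shift of all genes under median scaling -0.40 and -0.71. Of the dimmer Med25 probes, ILMN_2612091 was detected on the Ad-LacZ array of day 3 alone, which puts Ad-Med1 at least 1.67-fold lower that day, and ILMN_2612090 gave no direction on either day. The mean over the detected Med25 probes stood at -0.76 at day 3 and at -0.32, under 1.5-fold, at day 5.

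Med23, a tail subunit that takes up signals of Ras-driven factors such as ELK1, read 9.47 and 8.97 in Ad-Med1, against 8.89 and 8.85 in Ad-LacZ. The Ad-Med1 array of day 3 was the high one, and the gaps were 0.59 and 0.12. A second Med23 probe, at 8.79 and 8.71 in Ad-Med1 against 7.53 and 8.44 in Ad-LacZ, gave 1.26 and 0.27. Med24, the tail partner of Med23, read 9.86 and 9.44 in Ad-Med1, against 9.71 and 9.90 in Ad-LacZ, with groups that overlapped. Med15, known as a target of the sterol-regulating factor SREBP, and Med16 stayed under 1.5-fold on both days, at -0.30 and 0.04 for Med15 and -0.09 and -0.0025 for Med16. A further Med15 probe detected on all arrays, ILMN_2622146, was above 0 on both days (0.26 and 0.39). ILMN_1239432 was undetected in Ad-LacZ, and was at least 1.21-fold higher at day 5 with no fold to give at day 3.

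Med14, the scaffold, was close to the limit of detection. Its probe ILMN_1228189 read 6.29 and 6.42 in Ad-Med1, against 6.87 and an undetected 5.16 in Ad-LacZ. The difference was -0.58 at day 3, and at day 5 Ad-Med1 was at least 1.01-fold higher, so the 1.26 measured there rests on background. Probe ILMN_1242039 was detected in Ad-Med1 alone, with 6.80 and 6.81 against 5.77 and 5.23 in Ad-LacZ, at least 1.01-fold and 1.31-fold higher. The probes disagreed at day 3 and shared the direction at day 5.

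In the kinase module, 4 of 7 genes were detected, with medians of -0.27 at day 3 and 0.01 at day 5. Cdk8, the kinase, read 10.21 and 10.37 in Ad-Med1, against 10.33 and 9.87 in Ad-LacZ, and its paralog Cdk19 read 7.95 and 8.17 in Ad-Med1, against 8.33 and 8.11 in Ad-LacZ. In both kinases the arrays of the viruses overlapped, with differences of -0.12 and 0.50 for Cdk8 and -0.37 and 0.06 for Cdk19, whose second probe gave -0.16 and 0.94. Med12, which activates the kinase through cyclin C, read 8.21 and 7.97 in Ad-Med1, against 9.07 and 8.31 in Ad-LacZ. It was 1.81-fold lower at day 3 and -0.34 at day 5, with a limma effect of -0.60 ± 0.33 (SE; adjusted p = 0.449), and stood at -0.09 at day 3 against the Ad-LacZ array of day 5. Med12 and Med14 are X-linked, and Xist differed between the arrays, both across and within the viruses. Y-linked Eif2s3y was detected on Ad-Med1 at day 5 and Ad-LacZ at day 3 alone. The part of sex-linked RNA in the Med12 and Med14 differences was not tested. The paralogs Med12l, Med13 and Med13l were detected on no array: Med12l read 5.18 and 4.84 in Ad-Med1 against 4.76 and 4.87 in Ad-LacZ, Med13, which tethers the module to the core, 5.35 and 5.44 against 5.31 and 5.73, and Med13l 5.16 and 5.07 against 5.00 and 4.92. No level can be drawn from such signals. Cyclin C (Ccnc) was among the most even, at 9.28 and 9.27 in Ad-Med1 against 9.44 and 9.30 in Ad-LacZ, a range of 0.17. Its further probes did not all follow: ILMN_1247482 gave -0.26 and -0.11 and ILMN_1259110 -0.20 and -0.17, while ILMN_1239775 was at least 1.53-fold higher at day 3, where Ad-LacZ was undetected, and 0.90 higher at day 5, and ILMN_2936153 was detected in Ad-Med1 at day 3 alone.

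**Figure D3:**
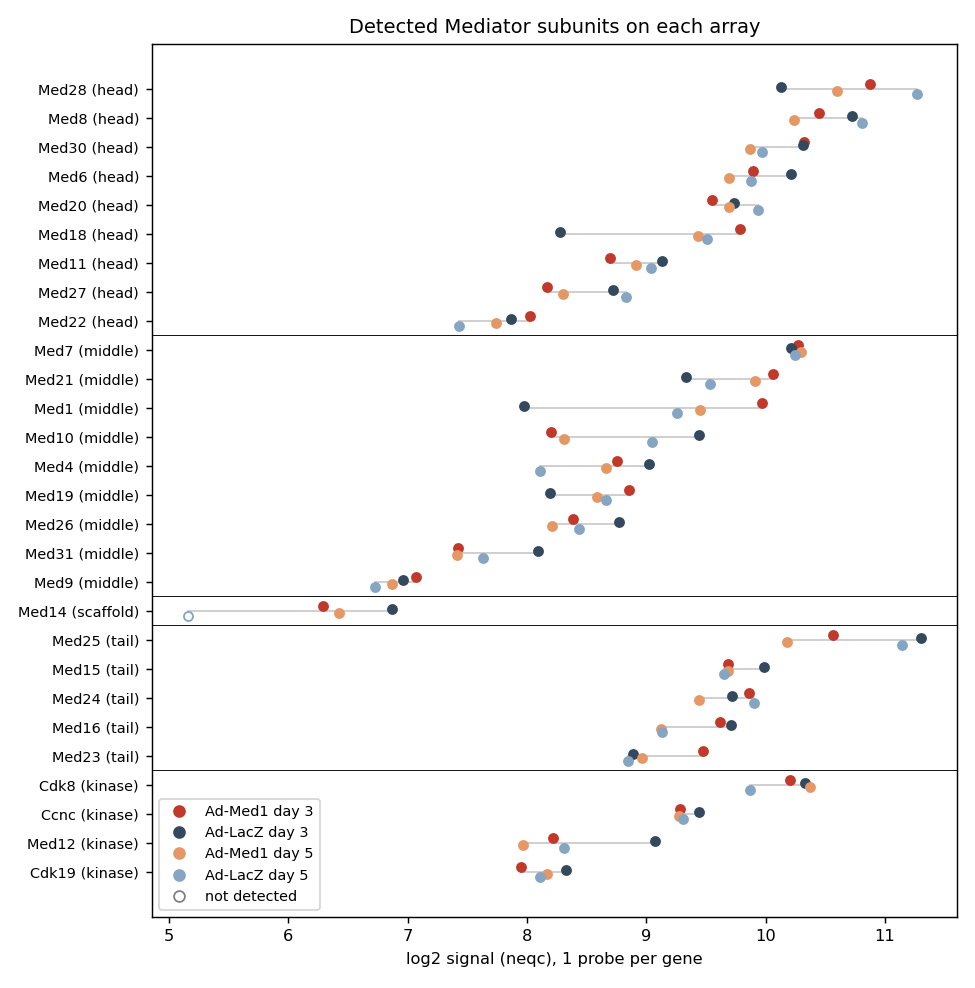
Normalised log2 signal (horizontal axis) of the probe that stands for each of the 28 detected subunits (rows, by module) on the 4 arrays; each point is 1 array, grey lines span the range and the open point was not detected. Med7 and Ccnc are the narrowest rows, Med10 and Med25 have both Ad-Med1 points left of both Ad-LacZ points, and signals of different probes cannot be ranked against each other.

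Of the 28 subunits, 10 had both Ad-Med1 arrays below both Ad-LacZ arrays (35.7%, against 26.9% of detected genes): Med8, Med11, Med20 and Med27 of the head, Med10, Med26 and Med31 of the middle, Med25, Med12 and Ccnc. Another 4 had both above both (14.3%, against 27.8%): Med1, Med7, Med21 and Med23. Without Med1, the gene the virus carries, 3 of 27 did. At day 3, 5 of 9 head subunits and 4 of 9 middle subunits were below 0 (51.7% of detected genes were), and at day 5, 8 of 9 and 4 of 9 (46.1% of genes). With median scaling all 28 were above 0 on both days, where detected genes as a whole were higher too, by medians of 1.004 and 0.83. Relative to that shift, subunits lay on both sides of 0, such as Med10 at -0.69 and -0.36 and Med21 at 1.03 and 0.65.

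The choice of probe mattered for several subunits. Of 73 probes, 45 were detected on at least 1 array, 37 of them on all 4. At day 3, 12 of 44 measured probes were at least 1.5-fold higher (26.4% of all named probes were) and 7 lower (27% of all); at day 5, 6 of 43 were higher (21.6% of all) and 5 lower (19.9% of all). Of 11 subunits with several measured probes, 4 had probes of opposite sign at day 3 (Med19, Med14, Med15 and Ccnc) and 2 at day 5 (Med11 and Ccnc), counting probes detected on both arrays of the day, or on 1 of them and beyond the lowest detected signal of the other.

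**Figure D4:**
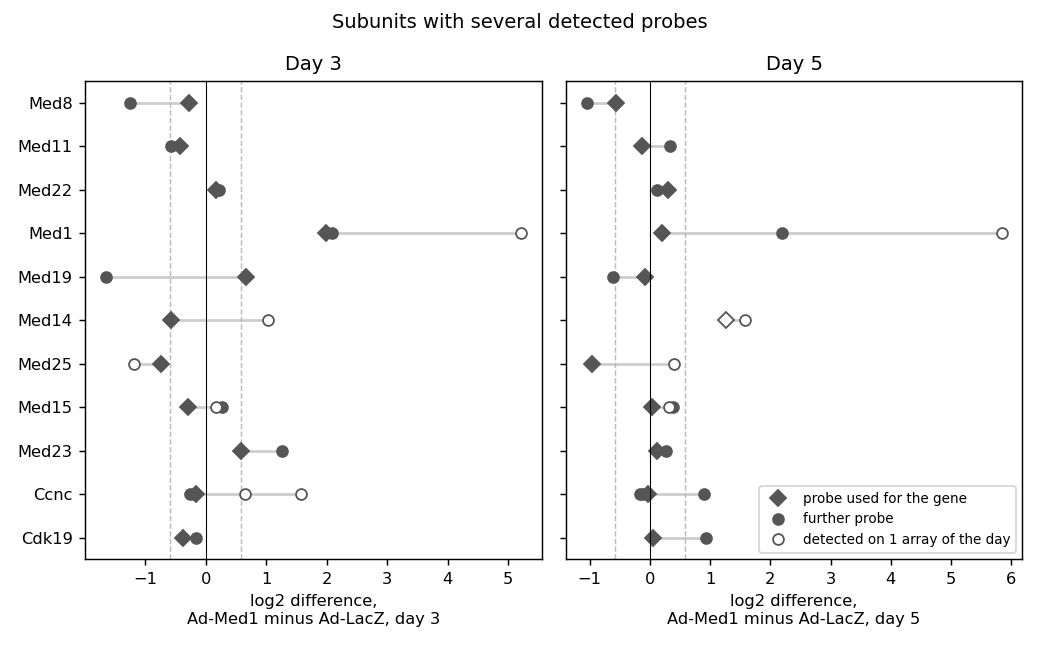
Log2 difference of Ad-Med1 minus Ad-LacZ at day 3 (left) and day 5 (right) for each detected probe of the 11 subunits with several; diamonds are the probes that stand for the gene, open symbols were detected on 1 of that day's arrays, and dashed lines mark 1.5-fold. Probes of Med8 and Med23 share a direction on both days, and those of Med19 are on opposite sides of 0 at day 3.

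From day 3 to day 5, none of the 28 differed by 1.5-fold within Ad-Med1 by the probe that stands for it, although Med1 probe ILMN_2658227 did, at 1.06 (9.78% of genes were that much higher at day 5 and 9.28% lower). Within Ad-LacZ, 3 were higher at day 5 (Med1 by 1.28, Med18 by 1.24 and Med28 by 1.14; 18.3% of genes) and 3 lower (Med14 at -1.71, with an undetected signal at day 5, Med4 at -0.91 and Med12 at -0.76; 18.3% of genes). These differences share their arrays with those between the viruses. The difference between the viruses in this respect was not tested.

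Partners of Mediator were read by the same measure. Genes are named where signals were at least 1.5-fold apart in 1 direction on both days. Of all genes measured on both days, 9.64% were that much higher on both and 9.67% lower. Among the lists, 1 of 12 general transcription factors, 1 of 15 elongation factors, 1 of 8 nuclear receptors and 1 of 7 cohesin genes were named so. Of 12 RNA polymerase II subunits, 8 had a probe and 7 were detected, with medians of -0.33 at day 3 and -0.17 at day 5, and none was at least 1.5-fold higher on both or lower on both. Of 18 general transcription factor genes, 17 had a probe and 13 were detected, with medians of -0.24 and -0.10. Among them Gtf2f1, the large subunit of TFIIF, which escorts the polymerase to the promoter, read 7.26 and 6.90 in Ad-Med1, against 8.73 and 7.87 in Ad-LacZ, 2.77-fold and 1.97-fold lower. Of 18 elongation factors 17 were detected (medians 0.03 and 0.04), and Eaf2, a partner of ELL, read 6.66 and 6.68 in Ad-Med1 against undetected 5.56 and 5.81 in Ad-LacZ, which puts it at least 1.21-fold higher at day 5 and gives no fold at day 3. Of 12 nuclear receptors known to bind Med1, 11 had a probe and 8 were detected (medians 0.13 and 0.19), and Nr1i3, which encodes CAR, read 11.08 and 10.61 in Ad-Med1, against 12.06 and 11.23 in Ad-LacZ, 1.97-fold and 1.54-fold lower. All 7 genes of cohesin and its loader, which hold enhancer loops with Mediator, were detected (medians 0.37 and 0.07); Rad21, a cohesin core subunit, read 7.55 and 6.86 in Ad-Med1 and was undetected in Ad-LacZ, with gaps of at least 1.71-fold and 1.36-fold. None of these genes passed limma over all genes.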

How the data were processed

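Liver RNA of 4 samples, grouped by the submitters' titles, was measured on Illumina bead arrays. Per the labels, RNA was column-cleaned with DNase and labelled with biotin. Per the file headers, the authors deposited a linear intensity and a detection p-value for each of 45281 probes; the deposited series values equalled those intensities (largest difference 0) and are not normalized. Which scanner software was used is not stated. neqc of limma 3.58.1 (R 4.3.3) corrected the background with an offset of 16, normalized quantiles and took log2. Probes were named from the platform annotation, updated by gene identifier; a gene stands by its probe with the highest mean signal, 1 of at most 6. Differences are Ad-Med1 minus Ad-LacZ. With 1 array per group no p-value is given per day, and the number of arrays limits the precision. Where the dimmer side was undetected, "at least" sets the brighter value against the higher of the dim value and the lowest detected signal of its array. limma over both days used Benjamini-Hochberg adjustment over all genes (1 residual degree of freedom, prior 2.69) and was tested on simulated data. The fit and counts over single probes, the day 5 minus day 3 counts, the limit on probes of opposite sign and the motif shares per gene were added after the data were seen. The labels do not say whether arrays are separate mice or pools. On Ad-Med1 at day 5, Xist (9.51) and Y-linked Eif2s3y (10.54) were both detected. Members and lists were chosen with earlier results of these data known; every listed subunit is described, in module order, with all arrays printed for those that differed most, least or on both days. Python 3.11.15, pandas 2.3.3 and matplotlib 3.10.9 did the rest.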

Additional observations from a re-analysis of the deposited data

Results flagged for a closer look

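Med28 differed in opposite directions on the days, higher by 0.75 at day 3 and lower at day 5 (-0.67), each past 1.5-fold; the difference between the days was not tested. It has 1 probe, with 10.87 and 10.60 in Ad-Med1 at day 3 and day 5, against 10.13 and 11.27 in Ad-LacZ.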

How the results depend on the processing

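The arrays of a day were paired through the day term of the limma fit; without it, 0 subunits were called as well (smallest adjusted p 0.216). The labels give no replicate numbers. Background correction with an offset of 50, a detection p under 0.05 and no detection filter kept every count, each median and Med1 near the reported values. Median scaling of the deposited intensities moved the most: 25 subunits higher and 0 lower at day 3, 24 higher and 0 lower at day 5, medians of 1.15 and 0.97, and 20 of 28 subunits called by limma, all higher, where 52.1% of all genes were called too. It turned Med10 (0.32 at day 3, 0.47 at day 5, limma 0.40), Med25 (0.61, 0.13, limma 0.37), Med12 (0.61 at day 3, limma 0.65), Med31 (0.57 at day 3), Med28 (0.38 at day 5) and Med8 (limma 0.85) above 0. Detected genes as a whole were then higher in Ad-Med1 too, by medians of 1.004 at day 3 and 0.83 at day 5. The count higher at day 5 was 0 with quantile normalization alone, with detection on all 4 arrays, and with a floor at each array's lowest detected signal, and 2 with the mean over probes. That mean put Med1 at 2.74 at day 5 and Med19 at -0.49 at day 3. It also put Med25 at -0.76 at day 3 but only -0.32 at day 5, which is under 1.5-fold. Med8 then stood at -0.76 and -0.81, past 1.5-fold on both days. With the Ad-LacZ array of the other day as control, 2 subunits were lower at day 3 and 2 higher at day 5, the medians were 0.021 and -0.25, Med1 stood at 0.71 and 1.48, Med28 at -0.40 and 0.47 and Med14 at -0.45 at day 5. At 2-fold, 2 subunits were higher and 1 lower at day 3 and 0 lower at day 5. The limma count of called subunits was 0 in every fit but that on median scaling. When each array in turn was left out, without the day term and with the lone array of a virus assumed to vary like the other pair, the smallest adjusted p among subunits was 0.0666 (without Ad-LacZ at day 5, where 413 of all genes were called) to 0.701. The causes of these shifts were not tested except where stated. The 5 undetected subunits have only signals at background, which limits what can be said of them.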
